A study of Mus musculus with 6 samples.

Results

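The apolipoprotein L genes code for a family of lipid-binding proteins that act mostly inside cells, at membranes. Most of these genes lie in a cluster on mouse chromosome 15, with other genes between them. Their rows were taken from the normalised count table by gene name, from a list of 7: Apol7c, Apol6, Apol8, Apol9a, Apol9b, Apol10b and Gm8221, a pseudogene within the gene cluster. Of these, 5 have a row among the 17832 genes of the table, and Apol6 and Apol9a were not analysed here. The members were selected on their normalised counts in the CD8 and CD4 libraries, with the difference between the groups known, so their values and differences are given as a description, with no p.

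The table holds 3 libraries of CD4+ cells (numbered 385, 393 and 395) and 3 of CD8+ cells (389, 395 and 387), sorted by flow cytometry from spleens of C57BL/6 mice. All mice had received angiotensin II, a peptide hormone that narrows blood vessels, from osmotic mini-pumps under the skin. No untreated library was used here, so nothing below bears on the treatment, and the sources used here do not give the gates beyond CD4 and CD8 or the sex and age of the mice. The labels do not say whether each number is an animal, so the spread between libraries may be in part technical.

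The family grew by repeated gene duplication, and its members differ between mammals. Human APOL1, the best known of them, is secreted into the blood and kills trypanosomes by forming an ion channel, and several human members are induced by interferon. In the mouse, Apol7c is known from the conventional dendritic cells that present engulfed antigen to CD8 T cells, where it has been linked to damage of the phagosome membrane. Mouse Apol9a and Apol9b are interferon-inducible proteins that bind phosphatidylethanolamine.

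Apol7c and its pseudogene copy are nearly the same sequence. In the GENCODE M21 annotation, the Gm8221 transcript (Gm8221-201, 1110 bases) aligned to the Apol7c transcript (Apol7c-201, 2060 bases) without a gap, at bases 168 to 1277 of Apol7c, which hold its whole coding part. The transcripts differ at 33 of these 1110 bases, an identity of 97.0%, and the longest identical stretch is 155 bases. Read in the frame of Apol7c, 32 of 370 codons differ, 24 of them with another amino acid, and Gm8221 holds 0 stop codons before its last codon, although its first codon is not ATG as that of Apol7c is. The 100 bases below, from base 898 of Apol7c and base 731 of Gm8221, are shown because reads across them can tell the genes apart. They were picked for the most differences, and other coding stretches of this length hold as many or fewer. Capitals mark the 9 bases that differ.
Apol7c: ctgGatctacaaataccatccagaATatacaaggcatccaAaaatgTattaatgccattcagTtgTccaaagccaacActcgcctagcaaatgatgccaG
Gm8221: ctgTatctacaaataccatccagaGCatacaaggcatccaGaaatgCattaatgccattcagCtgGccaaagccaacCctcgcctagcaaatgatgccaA

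The start regions carry a second feature of the family. Promoter windows of 300 bases (250 before and 50 after the start, RefSeq, GRCm38.p6) were matched by symbol for 4 of the 5 members with a row; Gm8221 has no window in the table used. They were searched on both strands for 4 motifs, among them the core of the interferon-stimulated response element, which interferon-activated factors bind, written as GAAA, any 2 bases and GAAA. This core stood in the windows of Apol7c, Apol10b and Apol9b and not in that of Apol8. It was found in 8 of 11 apolipoprotein L genes with a window, beside 3.99% of all 27025 genes and 3.44% of all 32851 windows. Some of these windows are near copies, so the 8 genes are not independent. Over the aligned part, those of Apol9a and Apol9b are 100% identical, and those of Apol11a and Apol11b 99.3%. In Apol7c and Apol9b there were 2 matches that share letters, from 55 to 40 and from 37 to 22 bases before the start, and Apol10b had 1, from 4 bases before to 5 bases after it. The windows follow, 5′ to 3′ on the strand of the gene, with the matches in capitals; all lie on the strand opposite to the gene, so they read TTTC, any 2 bases and TTTC here.
Apol7c, chr15:77533266-77533565, minus strand: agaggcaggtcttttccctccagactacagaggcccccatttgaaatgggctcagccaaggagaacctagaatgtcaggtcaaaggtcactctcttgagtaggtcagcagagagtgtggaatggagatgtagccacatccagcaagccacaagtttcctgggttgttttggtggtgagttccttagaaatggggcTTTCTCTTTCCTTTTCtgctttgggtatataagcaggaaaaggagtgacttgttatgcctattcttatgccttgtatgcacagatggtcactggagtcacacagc
Apol10b, chr15:77596076-77596375, minus strand: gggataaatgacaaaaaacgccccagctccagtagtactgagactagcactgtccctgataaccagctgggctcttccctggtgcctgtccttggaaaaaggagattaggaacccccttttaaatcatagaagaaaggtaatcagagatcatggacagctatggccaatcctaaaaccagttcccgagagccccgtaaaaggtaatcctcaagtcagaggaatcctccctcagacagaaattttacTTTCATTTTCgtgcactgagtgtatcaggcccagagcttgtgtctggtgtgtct
Apol9b, first of its starts, chr15:77728822-77729121, plus strand: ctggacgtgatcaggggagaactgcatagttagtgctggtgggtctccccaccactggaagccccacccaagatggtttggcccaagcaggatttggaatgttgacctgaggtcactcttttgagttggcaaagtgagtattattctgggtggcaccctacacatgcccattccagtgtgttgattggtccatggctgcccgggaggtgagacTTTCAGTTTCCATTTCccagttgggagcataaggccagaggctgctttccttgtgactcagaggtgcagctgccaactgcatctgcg

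None of these 3 windows held the composite site of PU.1 and interferon regulatory factors (GGAA, any 2 bases, GAAA) or the interferon gamma activated site (TTC, any 3 bases, GAA), which stood in 2.72% and 8.30% of all windows. The AP-1 site (TGA, any 1 base, TCA), found in 7.81% of windows, was present in Apol9b alone of the 3. The genes of like name, Apol7b and Apol7e, whose transcripts are 86.9% and 86.3% identical to that of Apol7c over the aligned part, share the surroundings of its match, and are shown because they differ in the match itself: Apol7e has 2 matches and Apol7b has 0, while their windows are 97.7% identical over the aligned part.
Apol7b: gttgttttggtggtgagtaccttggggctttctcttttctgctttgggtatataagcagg
Apol7c: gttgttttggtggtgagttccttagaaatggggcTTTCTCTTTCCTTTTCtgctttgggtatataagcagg
Apol7e: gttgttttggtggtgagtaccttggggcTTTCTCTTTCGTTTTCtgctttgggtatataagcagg
A match is a row of letters only, and no binding was measured.

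The libraries held 10264246 to 14628599 reads, and 17007 to 17613 genes had at least 1 read. Where a gene has 0 reads, up to 3 are possible, which is a normalised value of 2.52 to 3.49. Each library held the coreceptor transcripts of its label. Cd4 was at 4065 to 6313 in the CD4 and 38.9 to 163 in the CD8 libraries, and Cd8a at 3871 to 10001 in the CD8 and 7.45 to 36.8 in the CD4 libraries. CD8 389 stood apart from the other CD8 libraries: its summed value of the T cell receptor complex list (18 genes) was 24562, against 46261 to 89770 in the other 5 libraries, and its sum of 10 erythroid genes was 110319, against 36107 to 79761. CD4 395 had the lowest macrophage and monocyte sum, 4223, with the other libraries between 5980 and 25787. Values that rest on CD8 389 are therefore also given without it. In such bulk samples, fewer cells of a type and less RNA per cell cannot be told apart.

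Apol7c had the highest mean of the members in the CD8 libraries, although in CD8 389 Apol8 was higher. It had 60.8, 81.3 and 31.9 normalised reads in CD4 385, 393 and 395, and 367, 1094 and 788 in CD8 389, 395 and 387. Every CD8 library was above every CD4 library, and CD8 389 was the lowest of its group. The means were 58.0 ± 24.8 (SD, n = 3) in CD4 and 749.6 ± 365 in CD8, so that the CD8 mean was 12.9 times the CD4 mean. The log2 difference (CD8 minus CD4, from log2 of the value plus 1) was 3.63 (SE 0.48).

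Gm8221 showed the same order of groups at a lower level. Its values were 9.42, 12.3 and 12.8 in the CD4 libraries and 149.9, 443 and 399 in CD8 389, 395 and 387. The CD4 libraries lay close together and the groups did not overlap, with CD8 389 again lowest of the CD8 libraries. The means were 11.5 ± 1.81 (SD, n = 3) and 330.4 ± 158, with the CD8 mean 28.8 times the CD4 mean, and the log2 difference was 4.59 (SE 0.45). Among the 13877 genes tested, Gm8221 ranked 16 and Apol7c 41 from the highest in CD8 downwards, and 25 and 59 by the size of the log2 difference in either direction. Gm8221 passed the filter on low values, a value of 10 in 3 libraries, only with its CD8 libraries. Of its CD4 libraries, 2 reached 10. Nothing is therefore read from its rank.

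Reads shared between these genes were examined through their shares. Gm8221 took 13.4% of the summed Apol7c and Gm8221 reads in CD4 385 (exact binomial 95% interval 6.89 to 22.7), 13.1% in CD4 393 (6.72 to 22.2) and 28.6% in CD4 395 (15.7 to 44.6). In the CD8 libraries it took 29.0% in CD8 389 (25.2 to 32.9), 28.8% in CD8 395 (26.4 to 31.3) and 33.6% in CD8 387 (31.1 to 36.1). The shares in CD4 385 and 393 lay below those of the CD8 libraries and that of CD4 395 lay among them; the CD4 shares rest on 42 to 84 reads, and intervals cover counting error only. Of all stretches of 50 bases in the Gm8221 transcript, 30.8% also occur in Apol7c, and at 100 bases 7.02% do. With every other gene counted, 45.1% of the stretches of 50 bases in Gm8221 and 26.2% of those in Apol7c occur elsewhere. How the counting treated reads that match several genes is unknown here, as is the read length. The values of Apol7c and Gm8221 may thus in part be the same molecules or come from further genes, and are uncertain to that extent. No other annotated gene overlaps either of them in GENCODE M21.

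Apol10b, a member whose own function is little known, was low in every library. Its values were 9.42, 5.57 and 6.38 in the CD4 libraries and 14.8, 39.5 and 20.98 in CD8 389, 395 and 387, from 5 to 11 and from 16 to 34 reads. The groups did not overlap, although the highest CD4 and the lowest CD8 library were 5 reads apart. The means were 7.12 ± 2.03 (SD, n = 3) and 25.1 ± 12.9, and the log2 difference was 1.60 (SE 0.50). Apol10b passed the filter on low values through its CD8 libraries, since 0 CD4 libraries reached the minimum of 10.

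Apol8 was expressed in both groups and did not separate them. It had 332, 169 and 226 normalised reads in CD4 385, 393 and 395, and 709.7, 231 and 279 in CD8 389, 395 and 387. CD8 389 was the one high library, and the rest of the CD8 values lay inside the CD4 range. The means were 242 ± 82.7 (SD, n = 3) and 407 ± 263, with a log2 difference of 0.62 (SE 0.45) that became 0.12 without CD8 389. Apol8 shares no stretch of 50 bases with another family member, so its reads can be assigned more surely than those of the other members.

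Apol9b was the member with the higher point estimate in the CD4 libraries. It had 12.0, 12.3 and 3.19 normalised reads in CD4 385, 393 and 395, and 0.925, 1.16 and 3.36 in CD8 389, 395 and 387. CD4 385 and 393 stood above the rest, while CD4 395, with 3 reads, lay within the CD8 range of 1 to 4 reads. The means were 9.14 ± 5.16 (SD, n = 3) and 1.81 ± 1.34, and the gene did not reach the filter, so it was not tested. Of its stretches of 50 bases, 51.4% also occur in Apol9a, and the split of reads between these genes could not be examined.

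**Figure D1:**
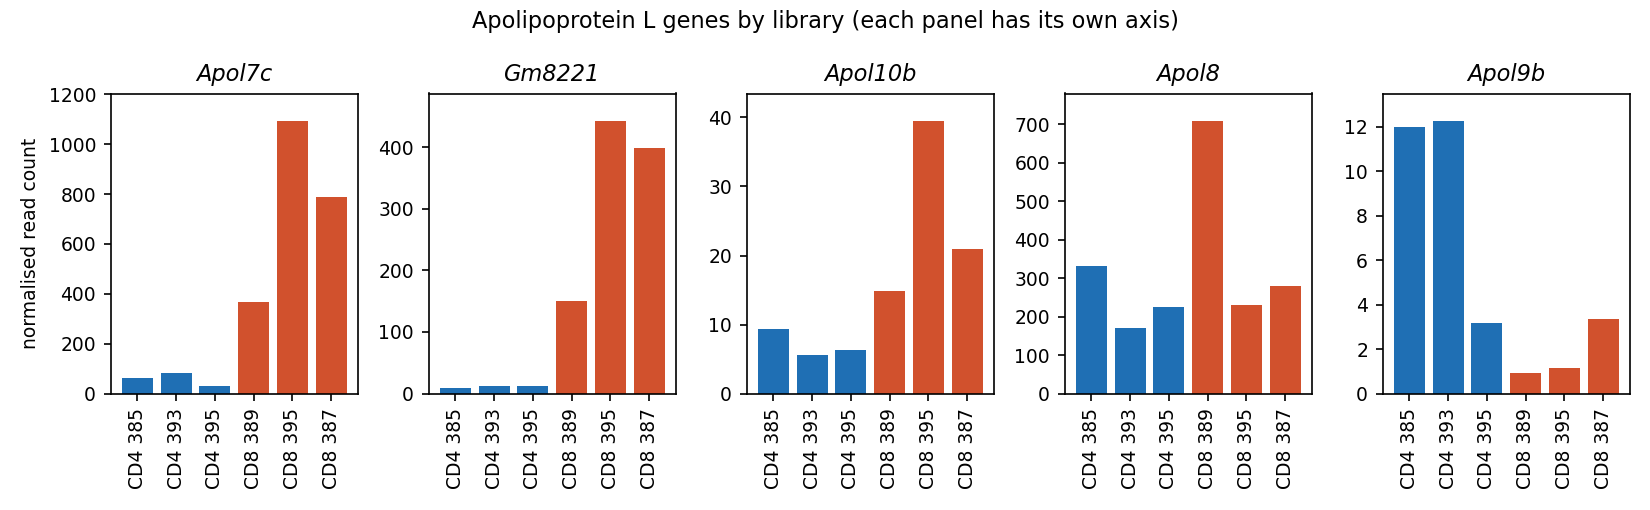
Normalised read count (vertical axis, a separate scale from 0 for each gene) of the 5 members with a row in the 3 CD4 libraries (blue bars) and the 3 CD8 libraries (red bars), 1 bar a library. Apol7c, Gm8221 and Apol10b are higher in every CD8 library than in any CD4 library, Apol8 is high in CD8 389 at 709.7, and Apol9b stands above 10 in CD4 385 and 393 only.

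Counted over the family, 4 members were tested and 2, Apol7c and Gm8221, were called higher in CD8 by limma at an adjusted p under 0.05, a call made for 0.281% of the 13877 genes in this direction, 0.209% in the other and 0.49% in both. Ranges did not overlap for 3 members, all higher in CD8, as was so for 4.93% of all genes tested in this direction and 10.2% in both. Since the members were picked with this comparison known, nothing is read from these counts. The calls depended on single libraries: without CD4 393, CD8 395 or CD8 387 neither gene was called, and without CD4 385 or CD4 395 only Gm8221 was, while both were called without CD8 389.

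Other genes of the family were not used in drawing up the list. Apol7e, a near copy of Apol7b with 99.3% identity between their transcripts, had 235, 552 and 377 normalised reads in CD4 385, 393 and 395, and 275, 646 and 621 in CD8 389, 395 and 387. The groups overlapped through CD8 389, since the other CD8 values lay above every CD4 value. The log2 difference was 0.39 (SE 0.42, limma adjusted p = 0.946), and 0.79 without CD8 389, where the gene was not called either. Apol11b had 108, 41.2 and 18.1 in the CD4 and 102, 33.7 and 44.5 in the CD8 libraries, with a log2 difference of 0.30 (SE 0.68, limma adjusted p = 0.960). Its sign turned when CD4 395 (-0.31) or CD8 389 (-0.16) was left out. Apold1, a more distant relative made by endothelial cells, had a log2 difference of 0.50 (SE 0.45, limma adjusted p = 0.946). Apol7b, at 0 to 5.87, and the pseudogene Apol10c-ps, at 0 to 4.63, were too low to test. Most of the Apol7e transcript, 74.0% of its stretches of 50 bases, is also found in Apol7b, so how reads fall between these is uncertain.

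Levels were set side by side after division by the length of the GENCODE M21 exons, but the order between genes is uncertain. The annotation used in the counting is unknown, and the genes differ in how much of their transcript is shared. The share of stretches of 50 bases found in another gene was 76.0% for Apol7e, 45.1% for Gm8221, 26.2% for Apol7c and 0% for Apol8. In the CD8 libraries, the order of the means per kilobase of exon was Apol7c with 364 ± 177 (SD, n = 3) normalised reads, Gm8221 with 298 ± 142, Apol7e with 213 ± 86.0 and Apol8 with 137 ± 88.9. Each of these neighbours in the order lay within 1 SD of the next. Without CD8 389 the order was the same, at 457, 379, 262 and 86.2. In CD8 389 alone Apol8 led with 239.6 normalised reads per kilobase, followed by Apol7c with 178, Gm8221 with 135.0 and Apol7e with 114. In the CD4 libraries Apol7e had the highest mean, 161 ± 65.8 normalised reads per kilobase, although Apol8 was above it in CD4 385 (112 against 97.2), followed by Apol8 with 81.8 ± 27.9, Apol7c with 28.2 ± 12.1, Apol11b with 22.6 ± 18.9 and Gm8221 with 10.3 ± 1.63. Apol10b, at 3.06 ± 0.872 in CD4 and 10.8 ± 5.53 in CD8, and Apol9b, at 5.02 ± 2.83 and 0.996 ± 0.736, stayed far below Apol8 per kilobase in both groups.

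**Figure D2:**
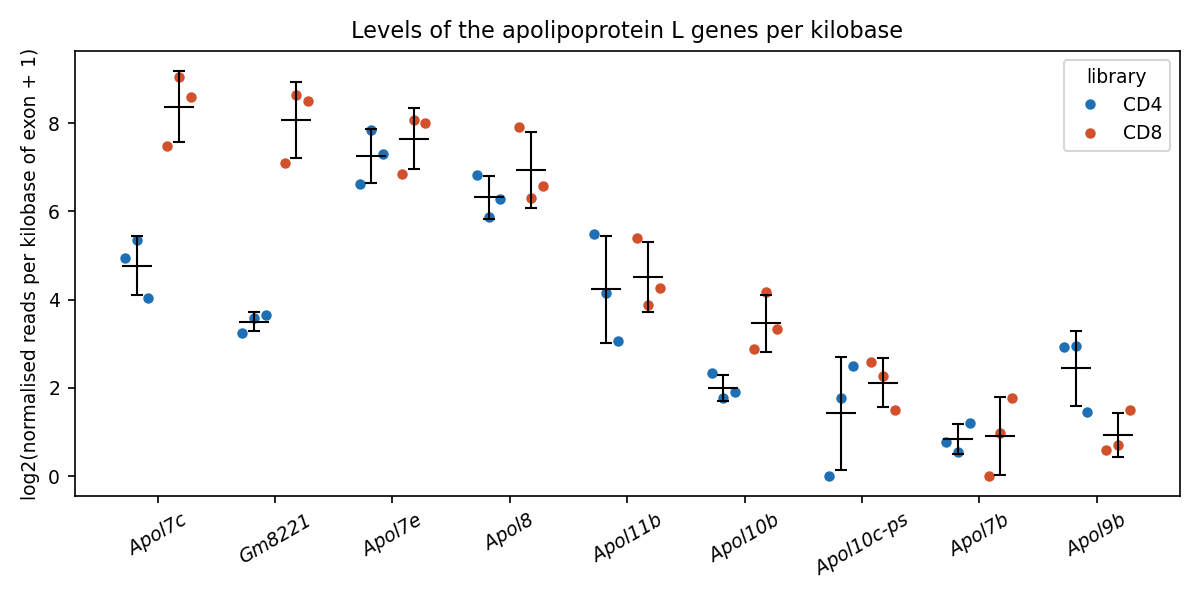
Level per gene on the log2 scale of normalised reads per kilobase of exon plus 1 (vertical axis) for the 9 genes of the cluster family with a row, Gm8221 included, with 1 point a library (blue CD4, red CD8) and the mean and SD of the log2 values over 3 libraries in black. Apol7c and Gm8221 lie apart between the groups, while Apol7e, Apol8 and Apol11b overlap.

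The summed value of these 9 genes, not divided by length, was 768, 877 and 682 in CD4 385, 393 and 395, and 1624, 2494 and 2163 in CD8 389, 395 and 387. Every CD8 sum was above every CD4 sum. The sum includes Apol7c and Gm8221, which were picked with their difference known, so nothing is read from this order or from the shares. Averaged over libraries, Apol7e and Apol8 made up 49.6% and 31.9% of the sum in CD4, and 23.8% and 22.0% in CD8. The Apol8 share in CD8 was 11.1% without CD8 389, where it was 43.7%. Apol7c made up 7.29% in CD4 and 34.3% in CD8, and Gm8221 1.499% and 15.1%.

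In the reference gene order, 21 genes run from Apol7a to Apol8, and 11 of them have a row. Apol7c, Apol10b and Gm8221 are consecutive among those 11. These members were picked with their difference known, and Apol10b and Gm8221 passed the filter only with their CD8 libraries, so nothing is read from their place. The next tested genes towards Apol8 are Apol11b, Apol7e and the pseudogene Gm18911, with log2 differences of 0.30, 0.39 and 0.53. Outside the cluster, Myh9, the heavy chain of non-muscle myosin, had a log2 difference of -0.36 (SE 0.25, limma adjusted p = 0.946), and Txn2, the mitochondrial thioredoxin, 0.28 (SE 0.20, limma adjusted p = 0.946). The flanking genes Zfp647, 1110038F14Rik and Gm22107 were at -0.13, -0.09 and 0.22. Of the 8 tested genes in and beside the cluster that are not members, limma called 0, with 0 at an unadjusted p under 0.05. Over all genes tested, these shares were 0.49% and 5.82%, so nothing is read from 0 among 8 genes. For these 8 genes, edgeR and DESeq2 also called 0.

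**Figure D3:**
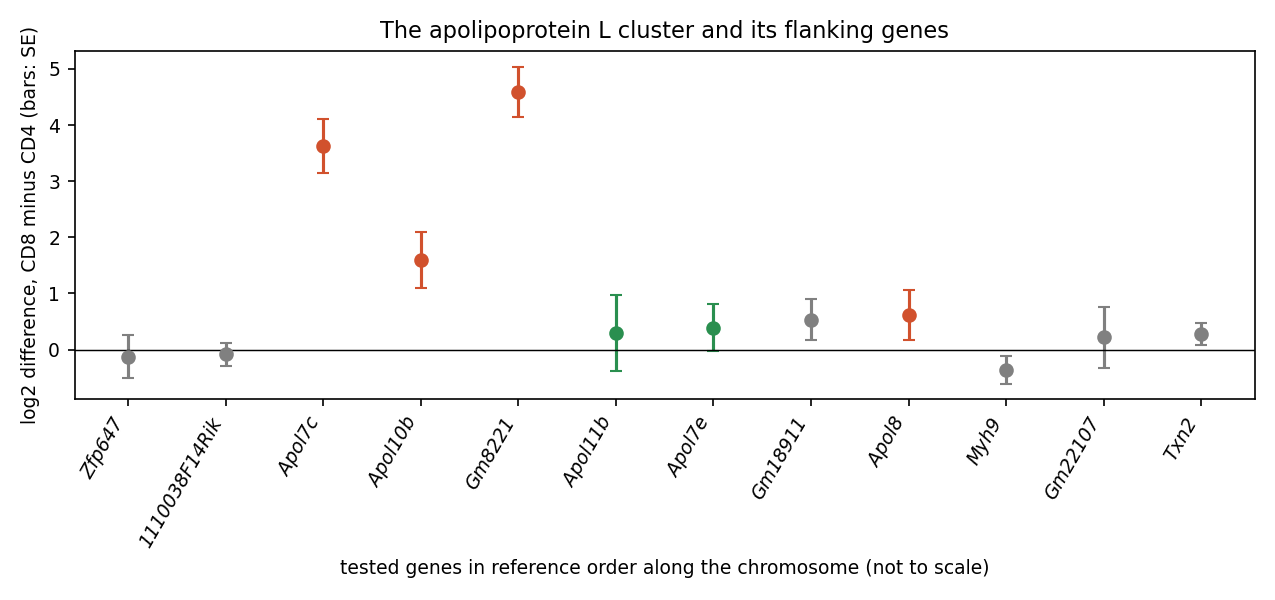
Log2 difference, CD8 minus CD4, with its SE (vertical axis) for the tested genes of the cluster and its flanks in reference gene order (horizontal axis, not to scale); red marks members, green other apolipoprotein L genes and grey other genes. Apol7c, Apol10b and Gm8221, which follow each other, lie at 3.63, 1.60 and 4.59, and the genes on both sides of them between -0.36 and 0.62.

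The genes whose pattern was most like that of a member were found by Pearson's r of log2(value + 1) over the 6 libraries, among the 12522 genes whose mean value reached 20 (12523 for Apol10b). With 6 points that fall into 2 groups, any gene that differs strongly between the groups gives a high r, so these are descriptions. For Apol7c the nearest were Adgrg5, an adhesion G protein-coupled receptor (r = 0.9995), Arhgap22 (r = 0.995), and Jaml, a junctional adhesion molecule of leukocytes (r = 0.993). Adgrg5 had 138, 202 and 78.7 normalised reads in CD4 385, 393 and 395, and 830, 2300 and 1833 in CD8 389, 395 and 387. It ranked the 6 libraries in the same order as Apol7c did.

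For Gm8221 the nearest were Cd8b1, the beta chain of the CD8 coreceptor (r = 0.997), Slc6a19, a transporter of neutral amino acids (r = 0.996), and Lcn4, a lipocalin (r = 0.994). Cd8b1 stood at 2283, 6590 and 5553 in CD8 389, 395 and 387. Apol7c and Gm8221 had an r of 0.972 with each other, and each had an r of 0.961 with Xcr1. For Apol8, the nearest were Cul1, the scaffold of a ubiquitin ligase (r = 0.998), Aaas, a nuclear pore protein (r = 0.996), and Nop58, a nucleolar protein (r = 0.995), each highest in CD8 389 like Apol8 itself. For Apol10b they were Prr5, a subunit of mTOR complex 2 (r = 0.993), Fuca1, a lysosomal fucosidase (r = 0.990), and the ribosomal protein gene Rpl32 (r = 0.986).

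Some genes of the cross-presenting dendritic cell were also higher in the CD8 libraries. Xcr1, the chemokine receptor that marks these cells, had 16.3, 14.5 and 7.45 normalised reads in CD4 385, 393 and 395, and 513, 492 and 456 in CD8 389, 395 and 387. The CD8 libraries lay close together for Xcr1, with CD8 389 slightly the highest. Of the 20 genes listed for these cells, 13 were lowest among the CD8 libraries in CD8 389, as Apol7c was, and 5 were highest there. The sizes differed. The highest CD8 library was 2.98 times the lowest for Apol7c. Of the 13 genes, Cd207 (11.9) and Batf3 (3.41) exceeded this, and the rest lay between 1.12 (Flt3) and 2.11 (Id2). Being lowest in CD8 389 is not particular to the list. The T cell receptor complex sum was lowest in CD8 389 too, at 24562 against 68928 in CD8 395 and 56233 in CD8 387, while the erythroid sum was highest there. The share of all genes lowest in CD8 389 was not counted, so nothing is read from the 13 of 20. There were 0.717, 2.22 and 1.73 Apol7c reads per Xcr1 read in CD8 389, 395 and 387, and 3.74, 5.62 and 4.29 in CD4 385, 393 and 395, where Xcr1 rested on 7 to 19 reads. Every CD4 library had more Apol7c reads per Xcr1 read than any CD8 library. This order did not hold for Clec9a, the receptor by which these cells sense dead cells. There were 0.816, 0.830 and 2.14 Apol7c reads per Clec9a read in CD4 385, 393 and 395, and 0.578, 1.31 and 0.963 in CD8 389, 395 and 387.

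**Figure D4:**
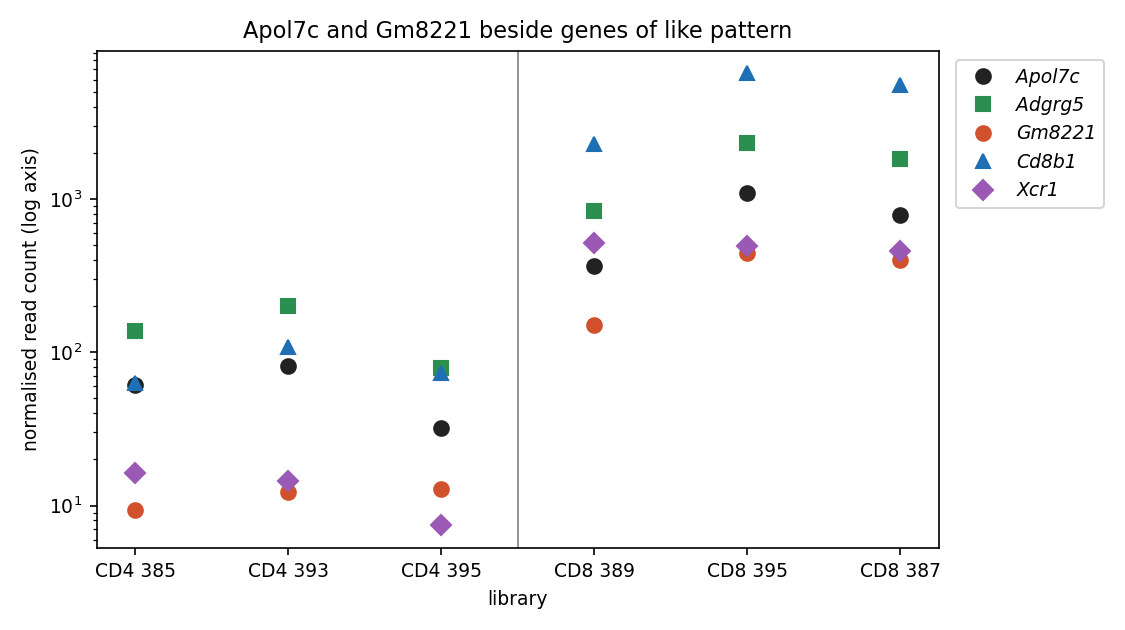
Normalised read count on a log axis (vertical) in the 6 libraries (horizontal, CD4 left and CD8 right of the line), 1 point a library, for Apol7c (black), its nearest gene Adgrg5 (green), Gm8221 (red), its nearest gene Cd8b1 (blue) and Xcr1 (purple). Among the CD8 libraries, Apol7c, Adgrg5, Gm8221 and Cd8b1 are lowest in CD8 389, at 367 for Apol7c and 2283 for Cd8b1, while Xcr1 lies between 456 and 513 in all 3.

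Of a list of 20 genes of this dendritic cell, 19 were tested and limma called 5 as higher in CD8 and 0 as higher in CD4. Such calls were made for 0.281% and 0.209% of all genes tested. Ranges did not overlap for 14 of the 19 (73.7%), beside 10.2% of all genes tested. An unadjusted limma p under 0.05 was also found for 14, beside 5.82% of all genes. The list was chosen with earlier results of these data known, so nothing is read from these counts. The median log2 difference over the 19 was 1.92, with all 19 above 0, beside a median of 0.04 over all 13877 genes, of which 7710 were above 0. Xcr1, Tlr11, Gcsam, Tlr3 and Clnk passed the filter only with their CD8 libraries. Clnk had 1 CD4 library at 10 or more and each of the others 2. Nothing is therefore read from these signs either. The called genes were Xcr1 (5.21, SE 0.33, limma adjusted p = 0.00416), Tlr11, a receptor for microbial profilin (4.66, SE 0.49, limma adjusted p = 0.0134), Gcsam, a lymphocyte signalling protein (4.05, SE 0.60, limma adjusted p = 0.0439), Itgae, the CD103 integrin chain that CD8 T cells also carry (3.36, SE 0.35, limma adjusted p = 0.0134), and Naaa, a lysosomal amidase (2.80, SE 0.33, limma adjusted p = 0.0187). Naaa had 277, 320 and 128 normalised reads in the CD4 and 1467, 1646 and 1617 in the CD8 libraries. Clec9a had means of 62.5 ± 42.9 (SD, n = 3) in CD4 and 762 ± 110.0 in CD8 and was not called (3.95, limma adjusted p = 0.0536). Batf3, a transcription factor these cells need, was at 1.21 (limma adjusted p = 0.946), with groups that overlapped.

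Without CD8 395 or CD8 387 the list kept 1 call, Xcr1, and without CD4 395 it had 8; edgeR called 5 and DESeq2 11. The summed value of the 20 genes was 17772, 10155 and 10959 in CD4 385, 393 and 395, and 32621, 23755 and 25293 in CD8 389, 395 and 387. The gene Cd24a, which red cell precursors also express, made up 19514 of the sum in CD8 389, where the erythroid sum was highest too, and 11753 in CD4 385. Without Cd24a the sums were 6020, 6162 and 2689 in the CD4 and 13107, 14915 and 16195 in the CD8 libraries, so that CD8 389 turned from the highest to the lowest CD8 library. The groups did not overlap with or without Cd24a. With it, the exact two-sided permutation test gave p = 0.1, the smallest that 3 against 3 libraries allow (adjusted p = 0.72 over 9 lists). Without it, the exact permutation test also gave p = 0.1. Groups that do not overlap always give this p. The list was chosen with earlier results known, and Cd24a was left out after its values were seen. Nothing is therefore read from these tests. In CD4 395 the genes Clnk and Cd207 were at 0, and no other gene of the list was at 0 in a library. The part of these cells in the values of Apol7c and Gm8221 was not tested. Of the other 7 cell type lists, none separated the groups by its sum, with an exact permutation p of 0.3 to 0.9. A sum can rest mostly on 1 gene. In the CD4 libraries, Ighm had a mean of 92568, where the B cell sum had a mean of 94695. Such a sum says little of the other genes in its list. Single genes could still differ. In the list of other and activated dendritic cells, 15 genes were tested and limma called 1, Ccr9, as higher in CD8 (limma adjusted p = 0.0295). Ranges did not overlap for 4 of the 15 (26.7%), beside 10.2% of all genes tested, and 9 of the 15 log2 differences were above 0. The 4 were Ccr9, Il12b (means 2.17 in CD4 and 52.7 in CD8), Ccl22 (10.3 and 65.2) and Fscn1 (76.9 and 345). Il12b passed the filter through its CD8 libraries, with 0 CD4 libraries at 10 or more. This list too was chosen with earlier results known, so nothing is read from these counts.

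The interferon genes, to which Apol9b belongs by its known induction, held no limma call. Of 30 genes that interferon induces, all 30 were tested and limma called 0, with 4 (13.3%) at an unadjusted p under 0.05, beside 5.82% of all genes tested; edgeR called 0, and DESeq2 called 1, Mx1. Ranges did not overlap for 5 of the 30 (16.7%), beside 10.2% of all genes. The median log2 difference was -0.18, with 7 of 30 above 0 and a range of -1.04 to 1.21; after rescaling to the T cell receptor complex list it was 0.35, where the median of all genes was 0.57. Irf9, a subunit of the factor that binds the interferon-stimulated response element, was at -0.18 (SE 0.14, limma adjusted p = 0.946), and Parp14, a macrodomain protein, at -0.43 (SE 0.19, limma adjusted p = 0.916). Mx1, an antiviral GTPase at the top of the range, had 128, 191 and 115 normalised reads in CD4 385, 393 and 395, and 298, 487 and 241 in CD8 389, 395 and 387. The summed value of the list lay between 11965 and 16488 in the 6 libraries, lowest in CD8 389.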

How the data were processed

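RNA from sorted splenic CD4+ and CD8+ cells (500 ng a sample) was made into stranded mRNA libraries, per the labels' protocols. The authors deposited a signal for each gene in each library, namely read counts over 1 size factor a library. The tools STAR 2.7.5c, featureCounts 2.0 and DESeq2 and the build GRCm39 are named, without roles, per the submitters' processing notes. The sources used here give neither the annotation nor the strand setting. Reads were recovered from the deposited signal: 100% of values were whole within 0.001 reads. No pair of libraries agreed within sampling noise (lowest chi-square per degree of freedom 25.4).

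Libraries were grouped by their labels. The test was limma 3.58.1 (R 4.3.3) with a trend, two-sided, on log2(value + 1) of the 13877 genes that reached 10 in 3 libraries or more, adjusted by Benjamini-Hochberg over all of them and called at 0.05; such differences understate the change of low genes. edgeR 4.0.16, DESeq2 1.42.0, other pseudocounts, filters and scalings, and leaving out each library were alternatives. The scripts were tested on simulated data. The members and the 10 gene lists were chosen with earlier results of these data known. Named are all members, other family genes, the 3 genes most like each tested member, the cluster's neighbours, and listed genes called or high. Clec9a, Batf3, Mx1, Clnk, Cd207, Cd24a, Naaa, Tlr3, Flt3, Id2, Il12b, Ccl22 and Fscn1 were named after their values were seen. Transcripts and gene order came from GENCODE M21 and RefSeq tables of GRCm38, and coordinates are of GRCm38.p6, not of the files' GRCm39. Motif search, alignment and shares used Python 3.11.15 and Biopython 1.88.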

Additional observations from a re-analysis of the deposited data

How the results depend on the processing

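Over 15 alternatives, Apol7c kept a higher value in CD8, with log2 differences of 3.26 to 4.15, as did Gm8221 (4.21 to 5.09), Apol8 (0.12 to 1.15) and, in the 11 that tested it, Apol10b (1.24 to 2.05). Apol7c was called in 10 of 15, Gm8221 in 12 of 15, Apol8 in 0 of 15 and Apol10b in 0 of 11. The members were picked with this comparison known, and the alternatives reuse the same libraries, so nothing is read from these counts. The number of members called, 2, was 0 to 2 when 1 library was left out; each of these fits has fewer samples. The dendritic list, with 5 calls, had 11 with DESeq2 and 1 to 8 when 1 library was left out. The interferon list, with 0 calls, had 1 with DESeq2. Over all genes, 68 calls became 104 at a pseudocount of 5, 42 with a filter at 50, 319 with DESeq2 and 7 to 46 when 1 library was left out. Rescaling to the T cell receptor complex list gave 103, of which 81 were higher in CD8 and 22 in CD4, beside 39 and 29; it moved the median of all genes to 0.57. Without CD4 395, 40 of 46 calls were higher in CD8; without CD4 393, 15 of 19; without CD8 395, 3 of 7; without CD8 387, 3 of 9. Scaling by library totals turned the log2 ratio of the B cell marker sums from 0.05 to -0.0054. Leaving Cd24a out of the dendritic marker sum, chosen after seeing the data, took its log2 ratio from 1.07 to 1.57. The cause of these changes was not tested. No paired analysis was possible because the groups share 1 label number, 395. The share of Apol9a in the summed Apol9a and Apol9b reads was not run. Depth limits Apol9b, Apol10b, Apol7b and Apol10c-ps, and the Gm8221 share in the CD4 libraries.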
